A study of Mus musculus with 16 samples.

Results

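Trbv19 is the mouse gene for the V-beta 6 segment of the T cell receptor beta chain, and it is written TCRBV19-01 in the deposited files. Its members here were all rearrangements whose V gene was assigned to TCRBV19-01 in any of the 16 tumor libraries, which gave 15068 of 198953 entries. Of these, 9568 were productive, meaning that the V and J segments were joined in a reading frame without a stop codon, 5449 were out of frame and 51 held a stop codon. The productive Trbv19 entries were 9568 of 126344 productive entries, and Trbv19 was 1 of 33 V genes with productive rearrangements. The members were chosen by the V gene and frame that the files assign to each sequence, so the rank of Trbv19 among the V genes is given as a description.

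A beta chain is made by joining a V, a D and a J segment, with bases trimmed from the segment ends and others inserted between them by terminal deoxynucleotidyl transferase. The CDR3 is the loop that spans this joint and touches the peptide held by an MHC molecule, while the V segment alone encodes the remaining loops. Each T cell clone carries its own joint, so a rearrangement found in many copies can mark an expanded clone. An out-of-frame rearrangement makes no receptor and is usually carried on the other chromosome of a cell with a working one, so it shows how often a V gene was joined and read apart from selection of its own protein.

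Per the labels, the 16 libraries came from T cells isolated by CD90.2 selection from subcutaneous KPC-Luc pancreatic tumors in female C57BL/6 mice, with 4 mice per group. That isolation is described in a protocol that goes on to an expression panel, and the study's methods for receptor sequencing do not mention it, so these libraries may hold RNA of the whole tumor. KPC-Luc is a luciferase-marked mouse pancreatic ductal adenocarcinoma line. Control mice received a scrambled peptide and isotype IgG; the ANT008 group received ANT008, a peptide antagonist of the receptors for vasoactive intestinal peptide, with isotype IgG; the anti-PD-1 group received the scrambled peptide with an antibody to the checkpoint receptor PD-1; and the combination group received ANT008 with anti-PD-1. Every mouse thus had a tumor, a daily dose of 10 µg peptide and 200 µg antibody every 3 days for 10 days, starting 6 to 7 days after implantation. All tumors came from a single cell line under the skin, and only the beta chain was read, so neither CD4 and CD8 T cells nor the purity of the selection could be told from these files. The libraries held between 7180 and 72588 productive templates, with means of 35658 in the control, 21980 in the ANT008, 35890 in the anti-PD-1 and 38195 in the combination group. A template is the assay's estimate of an input molecule, and since the labels name RNA as the starting material, more cells and more receptor RNA per cell could not be told apart. The smallest libraries were anti-PD-1 replicate 4 and ANT008 replicate 3, with 7180 and 11537 productive templates.

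The sequences that carry the results are the leading Trbv19 clones and the CDR3s found in many mice. The leading clone of 9 of the 16 mice held an aspartate followed by a tryptophan (DW) in its CDR3, encoded each time by the bases set in capitals in these 87-base reads, given 5′ to 3′ with the mouse before each and, for CDR3s under 15 residues, the amino acids:
control 1, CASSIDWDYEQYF: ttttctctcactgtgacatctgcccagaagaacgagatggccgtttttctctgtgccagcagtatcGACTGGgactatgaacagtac
control 2, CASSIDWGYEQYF: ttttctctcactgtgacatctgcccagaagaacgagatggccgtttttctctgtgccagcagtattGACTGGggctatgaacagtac
control 4, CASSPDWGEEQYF: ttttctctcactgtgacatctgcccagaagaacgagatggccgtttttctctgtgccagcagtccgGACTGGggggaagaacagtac
ANT008 1, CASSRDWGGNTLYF: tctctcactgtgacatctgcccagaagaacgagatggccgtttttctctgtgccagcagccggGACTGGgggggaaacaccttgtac
ANT008 2, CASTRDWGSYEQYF: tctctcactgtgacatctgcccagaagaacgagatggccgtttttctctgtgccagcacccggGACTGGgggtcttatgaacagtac
anti-PD-1 2: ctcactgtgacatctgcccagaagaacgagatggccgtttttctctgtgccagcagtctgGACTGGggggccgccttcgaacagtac
anti-PD-1 3, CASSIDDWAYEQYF: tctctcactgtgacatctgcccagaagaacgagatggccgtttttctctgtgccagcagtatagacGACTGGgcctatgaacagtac
anti-PD-1 4: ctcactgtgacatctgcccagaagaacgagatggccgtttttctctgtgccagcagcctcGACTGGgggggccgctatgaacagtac
combination 2, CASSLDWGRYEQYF: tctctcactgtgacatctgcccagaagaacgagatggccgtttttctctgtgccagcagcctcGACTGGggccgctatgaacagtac
The leading clones of ANT008 replicate 3 and combination replicate 3 did not hold DW and are shown because they were the largest Trbv19 clones of their groups, here with the CDR3 in capitals:
ANT008 3, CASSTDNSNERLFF: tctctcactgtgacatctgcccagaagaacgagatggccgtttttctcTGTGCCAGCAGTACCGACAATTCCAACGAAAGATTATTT
combination 3, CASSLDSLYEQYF: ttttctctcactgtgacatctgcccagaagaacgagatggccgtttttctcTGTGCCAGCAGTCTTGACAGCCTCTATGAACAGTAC
Each read ends before the codon of the last CDR3 residue. The 5 Trbv19 CDR3s found in at least 10 of the 16 mice are shown by their most abundant rearrangement, again with the CDR3 in capitals:
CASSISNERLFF: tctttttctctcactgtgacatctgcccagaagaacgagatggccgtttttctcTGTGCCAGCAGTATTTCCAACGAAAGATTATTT
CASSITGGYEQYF: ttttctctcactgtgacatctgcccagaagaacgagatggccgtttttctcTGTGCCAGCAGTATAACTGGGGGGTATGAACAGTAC
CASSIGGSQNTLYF: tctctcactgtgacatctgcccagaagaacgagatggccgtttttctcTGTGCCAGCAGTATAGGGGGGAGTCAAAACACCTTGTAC
the other TCRBJ02-07 CDR3: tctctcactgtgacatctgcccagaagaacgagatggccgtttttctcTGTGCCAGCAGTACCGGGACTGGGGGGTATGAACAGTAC
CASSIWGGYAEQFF: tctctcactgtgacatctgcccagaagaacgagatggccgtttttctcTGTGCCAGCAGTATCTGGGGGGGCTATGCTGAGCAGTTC

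Trbv19 was among the most used V genes in these tumors, and its share of templates varied more between mice of a group than between groups. Over the 16 mice Trbv19 took 8.16% ± 3.10 (SD, n = 16) of productive templates, after Trbv13-3 (9.31%) and Trbv3 (8.36%) and just above Trbv16 (7.77%). It took 7.87% ± 1.14 of unique productive rearrangements, after Trbv13-2 (10.09%) and next to Trbv3 (7.85%). The distance to these neighbours in templates, and to Trbv3 in unique rearrangements, was smaller than the SD between mice.

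In the control mice, Trbv19 took 12.7%, 4.85%, 4.45% and 6.27% of productive templates in replicates 1 to 4. In the ANT008 mice its share was 5.51%, 5.49%, 15.1% and 8.25%, in the anti-PD-1 mice 5.75%, 9.47%, 7.56% and 12.5%, and in the combination mice 8.24%, 10.3%, 7.21% and 6.94%. Every pair of groups overlapped, and the highest value in each of the control and ANT008 groups lay well above the other 3. The group means were 7.06% ± 3.82, 8.59% ± 4.53, 8.81% ± 2.87 and 8.17% ± 1.51 (SD, n = 4 each).

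None of these differences passed the test. By edgeR's quasi-likelihood test over all 33 V genes, the Trbv19 template share in ANT008 mice had a log2 fold change against control of 0.28 ± 0.48 (SE, adjusted p = 0.893), that in anti-PD-1 mice of 0.32 ± 0.48 (adjusted p = 0.727) and that in combination mice of 0.21 ± 0.48 (adjusted p = 1). The test called 1 V gene for ANT008 (3.03% of the V genes), 0 for anti-PD-1 (0%) and 1 for the combination (3.03%), and at an unadjusted p under 0.05 it listed 2, 4 and 5, of which Trbv19 was none. Without ANT008 replicate 3 the ANT008 value became -0.14, and under TMM scaling the anti-PD-1 and combination values became -0.01 and -0.08, so no direction is given for the template share. The departure of the combination from the sum of both agents was -0.39 ± 0.67 on the log2 scale (adjusted p = 0.887, with 3.03% of V genes called).

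**Figure D1:**
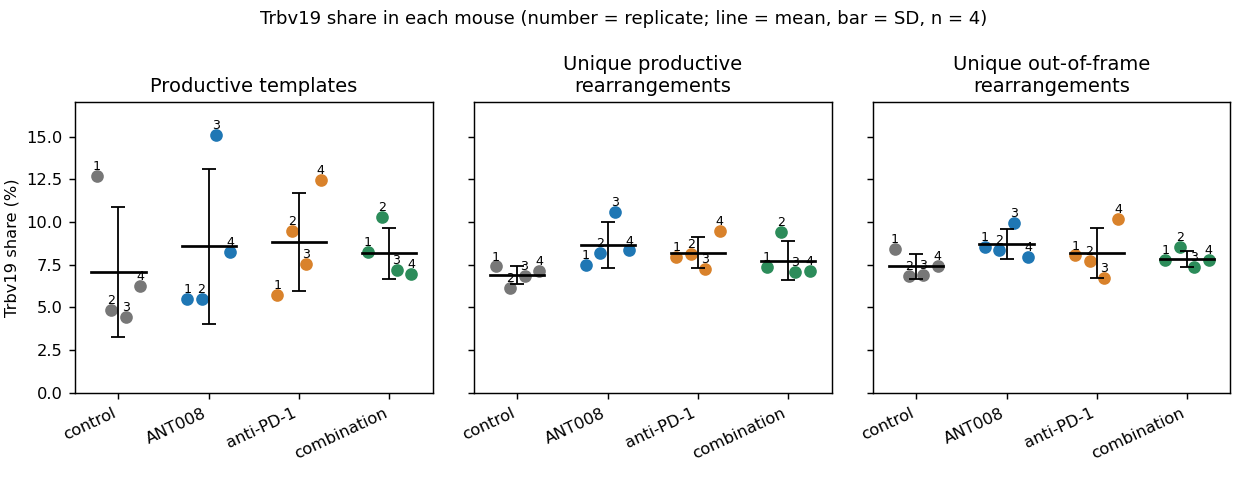
Trbv19 share in percent (vertical axis) of productive templates, unique productive rearrangements and unique out-of-frame rearrangements in each of the 16 mice, with each point numbered by replicate, the group mean as a line and the SD as a bar (n = 4). The template shares overlap between all groups. In unique productive rearrangements the ANT008 mice span 7.49% to 10.6% and the control mice 6.16% to 7.39%. With every library drawn down to 7180 templates by calculation, these groups overlap.

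Counting each rearrangement once, whatever its templates, narrowed the spread. Trbv19 took 7.39%, 6.16%, 6.84% and 7.14% of unique productive rearrangements in the control mice and 7.49%, 8.16%, 10.6% and 8.33% in the ANT008 mice. The lowest ANT008 mouse was thus just above the highest control mouse. How many of the other V genes separate these groups is not given here, so this is a description of Trbv19 alone. The shares were 7.98%, 8.12%, 7.25% and 9.46% in the anti-PD-1 mice and 7.37%, 9.43%, 7.08% and 7.10% in the combination mice, and both of these groups overlapped with control. Against control, the log2 fold change was 0.32 ± 0.12 (SE) in ANT008 mice, 0.24 ± 0.12 in anti-PD-1 mice and 0.17 ± 0.11 in combination mice.

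These differences did not pass edgeR's test after adjustment over the V genes, with adjusted p = 0.230, 0.647 and 0.900. The unadjusted edgeR p was 0.00697 for ANT008, 0.0392 for anti-PD-1 and 0.136 for the combination. In none of these comparisons did edgeR call any of the 33 V genes (0%), while 2, 2 and 1 had an unadjusted p under 0.05. The departure of the combination from the sum of both agents was -0.39 ± 0.16 in edgeR, with an unadjusted p of 0.0169 and an adjusted p of 0.297, and here too 0% of V genes were called.

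The out-of-frame Trbv19 rearrangements, which encode no receptor, were also higher on average in the treated groups. Their share of unique out-of-frame rearrangements was 8.45%, 6.85%, 6.90% and 7.41% in the control mice and 8.54%, 8.33%, 9.96% and 7.96% in the ANT008 mice. It was 8.04%, 7.74%, 6.74% and 10.2% in the anti-PD-1 mice and 7.75%, 8.52%, 7.38% and 7.76% in the combination mice. Control replicate 1 lay within the ANT008 range, so the ANT008 and control groups overlapped. Against control the log2 fold changes were 0.24, 0.12 and 0.10 (edgeR adjusted p = 0.147, 0.981 and 0.811).

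Library size moved with these shares. Across the 16 mice the unique productive Trbv19 share fell as the number of productive templates rose, with r = -0.77 and rho = -0.87 (n = 16, against log2 templates, and r = -0.54 without the 2 libraries farthest from the median size). For out-of-frame Trbv19 r was -0.92 and rho -0.91, and r was -0.78 without those 2 libraries. Among 25 V genes with out-of-frame rearrangements in all mice this was the most negative value, the next being -0.61 for Trbv5, and among 24 V genes with productive rearrangements the most negative was Trbv5 at -0.80, followed by Trbv19. The productive and out-of-frame shares of a mouse come from the same library and moved together, with r = 0.85 (rho = 0.81, n = 16).

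The ANT008 libraries were on average smaller than the control libraries, so treatment and library size moved together in that comparison. With every library drawn down to 7180 templates by calculation, the unique share ranged from 6.12% to 7.67% in the control mice and from 7.28% to 10.8% in the ANT008 mice, and the groups then overlapped. The log2 fold change with ANT008 was 0.33 at this equal depth (edgeR adjusted p = 0.105) and 0.20 with log2 library size as a covariate (edgeR adjusted p = 0.551). The share at equal depth still fell with the size of the original library (r = -0.72, rho = -0.76, n = 16). Both of these settings were chosen after seeing the data. What links the Trbv19 share to library size was not tested.

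**Figure D2:**
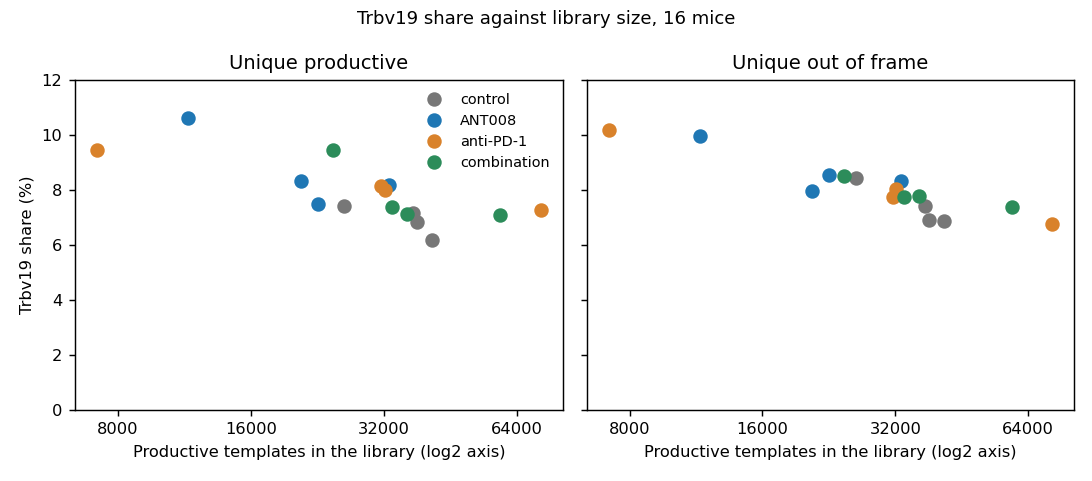
Trbv19 share of unique productive (left) and unique out-of-frame (right) rearrangements in percent against the productive templates of the library on a log2 axis, 1 point per mouse, colored by group. The 2 smallest libraries, at 7180 and 11537 templates, hold 9.46% and 10.6% productive and 10.2% and 9.96% out-of-frame Trbv19, and the share falls toward the largest libraries in both panels.

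A comparison of frames within each mouse asks whether Trbv19 was kept or lost among working receptors. The productive share of unique rearrangements was lower than the out-of-frame share in 11 of 16 mice and higher in 5, with means of 7.87% and 8.03%. The difference of -0.16 ± 0.60 percentage points (SD, n = 16) did not pass the two-sided exact sign-flip permutation test over mice (adjusted p = 0.338), a test that called 17 of 32 V genes (53.1%), 8 of them lower in productive entries (25%). Among rearrangements with more than 1 template the difference was 0.73 in the other direction (exact sign-flip adjusted p = 0.0110), so the sign of this comparison rests on the single-template entries.

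The V genes whose share moved most like that of Trbv19 were Trbv20 (r = 0.74), Trbv4 (r = 0.71) and Trbv5 (r = 0.61) for unique rearrangements, over 16 mice and 24 V genes, on the log2 percent scale. For templates they were Trbv24 (r = 0.41), Trbv4 (r = 0.25) and Trbv17 (r = 0.21). This order rested on 2 libraries. Without the 2 farthest from the median Trbv19 share the template values were 0.25, 0.35 and 0.37, and the unique values of Trbv20, Trbv4 and Trbv5 were 0.66, 0.41 and 0.48, with Trbv26 at 0.47. All shares of a mouse come from the same library and sum to a fixed total, and Trbv4, Trbv5 and Trbv20 were also among the 5 V genes whose unique share fell most with library size. In the annotation Trbv20 is the neighbour of Trbv19 on chromosome 6.

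Within Trbv19, the part of the templates held by a few clones differed widely between mice. The 10 most abundant rearrangements of a mouse took between 19.6% and 83.3% of its Trbv19 templates (median 55.4%), while 60.8% to 82.9% of its Trbv19 entries had a single template. The leading clone took 33.2%, 20.6%, 15.2% and 41.8% of Trbv19 templates in the control mice, 21.9%, 4.48%, 46.7% and 24.99% in the ANT008 mice, 6.70%, 15.7%, 17.6% and 16.98% in the anti-PD-1 mice, and 8.02%, 14.7%, 37.3% and 10.1% in the combination mice. Anti-PD-1 replicates 2 to 4 and control replicate 3 lay within 3 percentage points of each other, and the groups overlapped.

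The difference from control in this leading share was -3.16 percentage points for ANT008, -13.4 for anti-PD-1 and -10.2 for the combination, with standard errors of 10.6, 6.54 and 9.04. Two-sided exact permutation tests over the 70 splits of 8 mice gave p = 0.771, 0.114 and 0.229, and 0.842, 0.539 and 0.539 after adjustment over the 12 comparisons of repertoire measures. The smallest p that 70 splits allow is 0.0286. For anti-PD-1 the exact p reached it without single-template entries (-15.4) and without control replicate 3 (-17.6), in which the leading clone was the smallest of the control group.

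Clonality, which is 1 minus the Shannon entropy of the templates over its highest possible value, is 0 for equal clones and 1 for a single clone. For Trbv19 it was 0.52, 0.32, 0.19 and 0.51 in the control mice, 0.28, 0.11, 0.45 and 0.35 in the ANT008 mice, 0.15, 0.33, 0.37 and 0.21 in the anti-PD-1 mice, and 0.18, 0.30, 0.47 and 0.21 in the combination mice. The means were 0.39 ± 0.16, 0.30 ± 0.14, 0.27 ± 0.11 and 0.29 ± 0.13 (SD, n = 4 each). All 3 treated means were lower than the control mean, with exact permutation p = 0.457, 0.314 and 0.286 (adjusted 0.648, 0.539 and 0.539), and the control mice, at 0.19 to 0.52, overlapped with the treated mice, at 0.11 to 0.47.

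The leading Trbv19 clones were mostly private as nucleotide sequences, while 7 of their 16 CDR3s were found in more than 1 mouse. As a share of all productive templates they ranged from 0.246% (81 templates, 95% Wilson interval 0.198% to 0.306%) in ANT008 replicate 2 to 7.06% (814 templates, 6.60% to 7.54%) in ANT008 replicate 3. These intervals cover counting error alone. The leading clone of ANT008 replicate 3, with the CDR3 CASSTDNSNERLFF, ranked 3 in size among all productive clones of its library, as did that of control replicate 1, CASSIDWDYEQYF, at 4.21% (1094 templates). The leading clone of control replicate 4, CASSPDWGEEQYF, took 2.62% (977 templates), and that of combination replicate 3, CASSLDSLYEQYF, took 2.69% (1580 templates).

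Identical nucleotides to a leading clone were found in other mice for 2 of the 16. The read of ANT008 replicate 1 was in 2 other mice, with 2 templates in all, and that of anti-PD-1 replicate 1, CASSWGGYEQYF, was in 1 other mouse with 12. The latter joint held 0 inserted bases, and its CDR3 was made in 8 mice by 6 rearrangements. The other 14 leading reads were each in their own mouse alone. The CDR3 of control replicate 2, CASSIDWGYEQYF, was nevertheless found in 7 mice by way of 4 rearrangements, those of control replicate 4 and ANT008 replicate 1 were in 3 mice each, and those of control replicate 3, anti-PD-1 replicate 4 and combination replicate 3 in 2 mice each. The other 9 leading CDR3s were in their own mouse alone.

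Among the leading clones, 9 of 16 held DW, 11 used TCRBJ02-07 and 6 began with CASSI. The DW pair was chosen after these clones were seen, so its values are a description with no test. Over all Trbv19 productive entries there were 633 with DW, in 506 CDR3s, of which 456 were in a single mouse. The pair was encoded by GACTGG in 99.4% of the entries, and 99.8% were assigned TCRBD02-01, a D segment whose germline sequence encodes DW in a reading frame of its own.

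DW took a larger part of Trbv19 templates than of Trbv19 rearrangements. It was in 7.00% of unique Trbv19 rearrangements and 18.1% of Trbv19 templates on average over 16 mice. In the control mice, 38.3%, 39.6%, 4.18% and 44.5% of Trbv19 templates held DW, against 6.99%, 8.91%, 5.23% and 8.93% of unique rearrangements. In the ANT008 mice the template values were 26.96%, 11.3%, 4.88% and 2.16%, in the anti-PD-1 mice 6.38%, 24.7%, 27.4% and 24.5%, and in the combination mice 4.28%, 17.3%, 2.34% and 10.6%. The unique values stayed between 5.23% and 9.62% in all mice. The template share exceeded the unique share in 11 of 16 mice.

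The control group had the highest mean of DW templates, 31.7% ± 18.5, against 11.3% ± 11.1 in the ANT008, 20.7% ± 9.67 in the anti-PD-1 and 8.63% ± 6.76 in the combination group (SD, n = 4 each), with control replicate 3 among the low values. Since DW was picked from the leading clones, this order is not independent of that choice. Without the leading clone of each mouse, DW took 7.59%, 23.9%, 4.93% and 4.77% of the remaining Trbv19 templates in control mice. It took 6.45%, 7.18%, 9.16% and 2.88% in ANT008, 6.84%, 10.7%, 11.9% and 9.02% in anti-PD-1, and 4.66%, 3.07%, 3.73% and 11.8% in combination mice. The groups overlapped. Over all mice, most of the gap between the template and unique shares came from the leading clones. Without the leading Trbv19 rearrangement of each mouse the mean difference between template and unique shares was 1.15 instead of 11.1 percentage points, with 9 of 16 mice at the higher template share. That remainder came mainly from control replicate 2, where the difference was 15.2, and over the other 15 mice the mean was 0.22. Of 51 Trbv19 entries with at least 100 templates, 14 (27.5%) held DW, in 9 mice, against 6.50% of entries with a single template. These 51 entries include leading clones from which DW was picked, so the 27.5% is not independent of that choice.

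Pooled, the other V genes held DW in 8.71% of unique rearrangements and 5.42% of templates, and the template share was higher in 0 of 16 mice. Of their 481 entries with at least 100 templates 4.37% held DW, against 9.34% of single-template entries. Of the 20 V genes with at least 1000 entries, 16 had a lower mean DW share in templates and 4 a higher one, namely Trbv19 (11.1 ± 13.7 percentage points, SD, n = 16, from -4.82 to 35.6), Trbv13-2 (2.56 ± 8.29, higher in 6 mice), Trbv31 (1.97 ± 7.16, higher in 8) and Trbv29 (1.37 ± 3.09, higher in 9). Since DW was picked from the leading Trbv19 clones, the high value of Trbv19 follows in part from that choice. With the leading rearrangement of each V gene left out in each mouse, Trbv29 (2.77 ± 4.91), Trbv13-2 (1.88 ± 5.49) and Trbv31 (1.35 ± 4.08) lay above Trbv19 (1.15 ± 4.62).

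**Figure D3:**
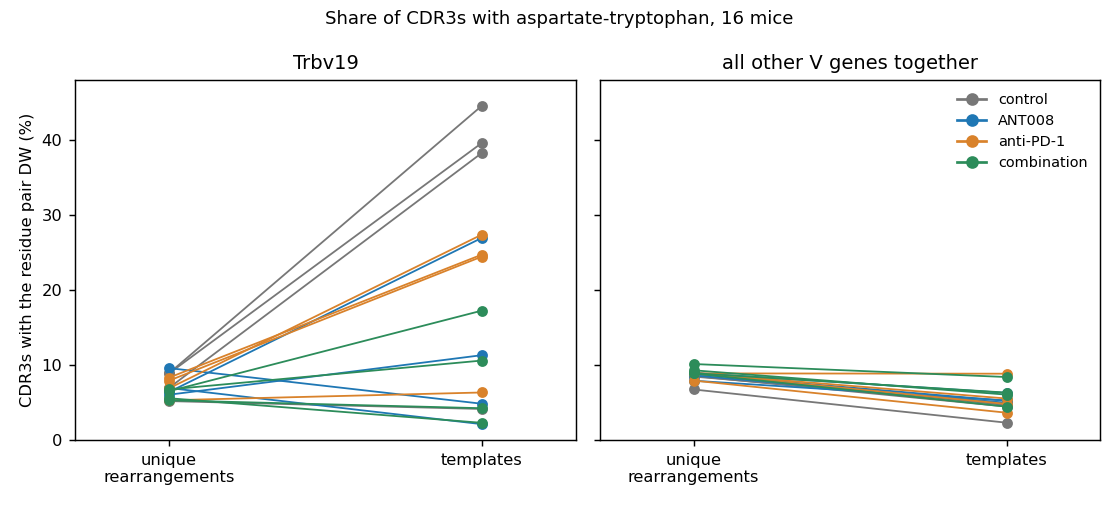
Share of CDR3s holding aspartate-tryptophan in percent (vertical axis), counted over unique rearrangements and over templates, for Trbv19 (left) and for all other V genes together (right), with 1 line per mouse colored by group. Lines for Trbv19 rise in 11 of 16 mice, to at most 44.5%, and lines for the other V genes rise in 0 of 16. DW was picked from the leading Trbv19 clones. The right panel pools many V genes, of which Trbv29 taken alone rises in 9 mice.

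Out-of-frame Trbv19 joints were read for the same bases GACTGG. The template share of these bases exceeded their unique share in 1 of 16 mice. They were counted in any reading frame, unlike DW. In control replicate 1 they were in 16.4% of unique productive Trbv19 rearrangements, against 6.99% for DW. The out-of-frame count is therefore not a like measure to set against that of DW. In the productive DW entries of Trbv19, TCRBJ02-07 was the J segment in 41.9% of unique rearrangements and 78.1% of templates, so the abundant DW clones were mostly also Trbj2-7 clones.

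J segments supply the end of the CDR3. Among unique productive rearrangements, Trbv19 used 7 of 12 J segments at a rate that differed from the other V genes of the same mice, by the two-sided exact sign-flip permutation test over 16 mice with adjustment over the J segments (58.3% called). This was run for Trbv19 alone. How many J segments would be called for another V gene is not known, so these calls do not set Trbv19 apart. Trbv19 was joined more often to TCRBJ01-06, at 4.38% ± 1.09 against 2.95% ± 0.25 for the other V genes (SD, n = 16 mice, higher in 13, exact adjusted p = 0.00195), and to TCRBJ01-04, at 8.30% ± 1.40 against 7.09% ± 0.44 (higher in 13, exact adjusted p = 0.00879). It was joined less often to TCRBJ01-05, at 2.17% ± 0.52 against 3.21% ± 0.31 (higher in 1, exact adjusted p = 0.00110), and to TCRBJ01-02, at 4.54% ± 0.83 against 5.62% ± 0.52 (higher in 2, exact adjusted p = 0.00195). These 4 were called whichever mouse was left out, but without single-template entries the test called 1 of the 12 segments.

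The other 3 called segments lay closer to the threshold. TCRBJ02-05 was lower in Trbv19 (10.2% against 11.3%, exact adjusted p = 0.0325), TCRBJ01-03 was higher (5.45% against 4.85%, exact adjusted p = 0.0485) and TCRBJ02-02 was lower (5.03% against 5.67%, exact adjusted p = 0.0485). TCRBJ02-07, the most used segment, took 21.1% in Trbv19 and 21.1% in the other V genes, and TCRBJ02-01 took 13.01% and 13.03%. TCRBJ01-01, TCRBJ02-03 and TCRBJ02-04 took 9.49%, 8.33% and 8.02% of Trbv19 rearrangements against 8.70%, 8.57% and 7.82%, and did not pass.

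In out-of-frame rearrangements the test called 1 of 12 J segments (8.33%), and it was TCRBJ02-07, at 23.3% in Trbv19 against 20.2% in the other V genes (higher in 13 of 16 mice, exact adjusted p = 0.0278). None of the 7 segments called in productive entries was called out of frame. Of these 7, 6 differed in the same direction out of frame, among them TCRBJ01-05 (3.30% against 4.00%) and TCRBJ01-02 (6.12% against 7.21%), whose difference was -1.09 percentage points out of frame and -1.08 in productive entries. TCRBJ01-06 was opposite in sign, at 3.24% against 3.52%. The difference between frames was not tested.

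By templates, TCRBJ02-07 took 37.7% ± 19.1 of Trbv19 (15.6% to 80.8% in single mice) against 28.1% in the other V genes, with exact adjusted p = 0.0501, and 1 of 12 segments passed. That segment was TCRBJ01-05, which took 1.17% of Trbv19 templates and 5.50% of other templates (exact adjusted p = 0.000366). Trbv19 templates with TCRBJ01-04 ranged from 3.11% to 49.0%, where the highest value was that of ANT008 replicate 3, whose leading clone uses this segment.

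**Figure D4:**
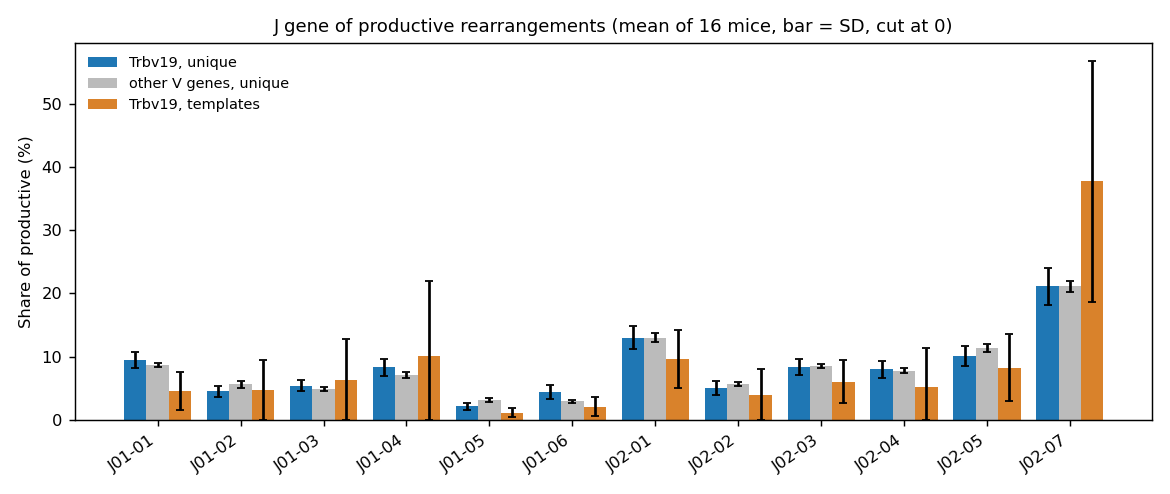
Share in percent (vertical axis) of each of 12 J segments among unique Trbv19 rearrangements, unique rearrangements of other V genes and Trbv19 templates, as means of 16 mice with SD bars that are cut at 0. The unique shares of Trbv19 and other V genes lie close together, and TCRBJ02-07 stands out by templates at 37.7% with a wide spread.

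The joints of Trbv19 differed little from those of other V genes in size. Mean CDR3 length was 13.87 ± 0.10 residues against 14.02 ± 0.06 (SD, n = 16), lower in 16 of 16 mice (exact sign-flip adjusted p = 7.3e-05, where 87.5% of 24 V genes were called). Weighted by templates, this length difference kept its sign but did not pass. Inserted nucleotides averaged 3.67 ± 0.15 against 3.55 ± 0.07, higher in 14 of 16 mice (exact sign-flip adjusted p = 0.00324, 66.7% called). Bases lost from the V end averaged 3.06 ± 0.07 against 2.61 ± 0.04, higher in 16 of 16 mice (exact sign-flip adjusted p = 4.9e-05, 83.3% called). With most V genes called in each measure, these calls do not set Trbv19 apart, and it ranked 14th, 9th and 9th of 24 from the highest difference.

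Neither length nor insertions differed between treatments beyond the spread. Mean CDR3 length was 13.89 ± 0.13 in control, 13.83 ± 0.12 in ANT008, 13.81 ± 0.05 in anti-PD-1 and 13.96 ± 0.01 in combination mice (SD, n = 4 each), with exact permutation p = 0.571, 0.314 and 0.314. Inserted nucleotides averaged 3.74 ± 0.18 in control, 3.66 ± 0.15 in ANT008, 3.53 ± 0.13 in anti-PD-1 and 3.73 ± 0.09 in combination mice, with exact permutation p = 0.486, 0.0857 and 0.943. The smallest of these, for anti-PD-1, was 0.539 after adjustment over the 12 comparisons, and all 4 anti-PD-1 mice lay below the control mean. Without control replicate 3 the combination mice were longer by 0.11 residues, with an exact permutation p of 0.0286, the smallest possible with 3 against 4 mice.

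A CDR3 beginning with CASSI marked Trbv19. It was the start of 33.4% to 43.7% of unique Trbv19 rearrangements in each mouse and of at most 0.673% in any other V gene with at least 1000 entries. Where no base was deleted from the V end, 98.6% of Trbv19 entries began with CASSI, so the V segment supplies these residues. By templates CASSI took 14.4% to 63.9% of Trbv19.

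Most Trbv19 CDR3s were seen in a single mouse. Of 8133 different CDR3 amino acid sequences, 7519 (92.5%) were in 1 mouse, 614 in at least 2, 68 in at least 4 and 5 in at least 10. The 68 recurrent CDR3s were 0.836% of the Trbv19 CDR3s, against 0.842% of the V gene and CDR3 pairs of other V genes. They held 1.75 inserted nucleotides per entry, against 3.78 in the rest, and 41 of 68 (60.3%) began with CASSI. All but 2 of the 68 were made by more than 1 rearrangement, with a median of 4 and at most 11. Per mouse, 11 to 38 of them were found, and they took 2.03% to 27.1% of Trbv19 templates.

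The most widespread was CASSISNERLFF, with TCRBJ01-04, which was in 13 of 16 mice by way of 8 rearrangements and 207 templates. Of these templates 95 came from control replicate 3. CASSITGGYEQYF was in 11 mice with 468 templates, 380 of them in anti-PD-1 replicate 2, where it was 1.20% of productive templates. The other TCRBJ02-07 CDR3 and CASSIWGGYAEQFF were in 10 mice each, with 55 and 21 templates. A single mouse thus held most templates of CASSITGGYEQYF, which also reached 0.147% of productive templates in ANT008 replicate 3 and 0.118% in control replicate 3. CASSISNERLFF was 0.249% in control replicate 3, summed over its rearrangements. The largest of these, at 0.220%, was the next Trbv19 clone there after the leading one.

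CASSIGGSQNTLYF, joined to TCRBJ02-04, was found in 11 mice and in none of the 4 control mice. It had 1, 12, 3 and 9 templates in the ANT008 mice, 2, 1, 12 and 2 in the anti-PD-1 mice and 1, 1, 2 and 0 in the combination mice. In the control mice 0 of 26005, 41224, 38116 and 37285 templates allow shares of up to 0.0115%, 0.00728%, 0.00787% and 0.00805%. Pooled over each group, its share was compared with the control limit of 3 templates. It was 13.5-fold this limit with ANT008, 5.63-fold with anti-PD-1 and 1.24-fold with the combination. These ratios take the treated counts of 25, 17 and 4 templates without their own counting error and ignore the spread between mice. They are therefore not lower bounds, and the combination value rests on 4 templates. Anti-PD-1 replicate 3 held 12 of the 17 anti-PD-1 templates, and without it the ratio was 3.35. Without ANT008 replicate 2 the ANT008 ratio was 11.2. Without combination replicate 1, 2 or 3, at most 3 combination templates were left and no ratio was formed. This CDR3 was singled out after its absence from the control mice was seen. It was made by 11 rearrangements.

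This difference did not pass the test across all recurrent CDR3s. By edgeR over the 909 V gene and CDR3 pairs found in at least 4 mice, the adjusted p of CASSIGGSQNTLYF was 0.438 for ANT008, 0.367 for anti-PD-1 and 0.404 for the combination, with unadjusted p = 0.0127, 0.0269 and 0.114. Of the 43 V gene and CDR3 pairs found in at least 10 mice, it was the 1 pair that was missing from all mice of a group. The test called 0 of the 68 Trbv19 CDR3s and 0 of 909 pairs (0%) in each comparison. At an unadjusted p under 0.05 edgeR listed 11, 12 and 10 of the 68 in ANT008, anti-PD-1 and combination mice. Over all 909 pairs it listed 99, 114 and 132. DESeq2 listed 3, 1 and 1 of the 68, against 12, 12 and 8 of the 909. It called 0 of the 68 in each comparison, and 0, 2 and 2 of the 909.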

How the data were processed

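T cell receptor beta rearrangements of 16 tumor libraries were sequenced by the immunoSEQ mouse assay. The authors deposited, per sample, a table with a row per 87-base rearrangement, its template count, its V, D and J assignments, its frame and its CDR3. The aligner and genome build are not given in the sources used here. The study names DNA in its results and RNA in its methods as the starting material, and the labels name RNA. Shares were computed over productive templates (7180 to 72588 per library) or over unique productive entries. V gene and CDR3 counts were tested with edgeR 4.0.16 (R 4.3.3), with library size fixed at the productive total, over 33 V genes or 909 pairs, with DESeq2 1.42.0 as an alternative. Other measures used exact permutation or sign-flip tests (65536 sign patterns), with Benjamini-Hochberg adjustment and a threshold of 0.05. The code of the tests was run on simulated data with set changes, which does not show how small a change could be seen here. Alternatives were other scalings, a filter of at least 10 counts in at least 4 samples, no single-template entries, other units and leaving out each mouse. Named items were Trbv19, all J segments, each leading clone, CDR3s in at least 10 mice, and the V genes most alike or adjacent in share. The gene and the lists were chosen with earlier results of these data known. Gene symbols follow RefSeq GRCm38.p6, and all 33 V names matched. Coordinates were not used. Nothing in the labels ties samples to further replicates of a mouse, and p-values measure the spread between these 16 mice. Of 9564 Trbv19 entries with 36 bases before the CDR3, 285 (2.98%, 0.752% of templates) differed there from the commonest stretch, and 152 of them had the CDR3 nucleotides of a larger entry of the same mouse, so unique counts are slightly high.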

Additional observations from a re-analysis of the deposited data

Results flagged for a closer look

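In 44 groups of 4 mice, over 11 Trbv19 measures, 6 had a mouse whose gap to the nearest other mouse was past the 95% critical value of Dixon's test as a part of the group's range, where chance flags about 1 in 20 groups. Combination replicate 2 had a unique productive share of 9.43%, with the next at 7.37%. Anti-PD-1 replicate 4, the smallest library, had 12.7% of out-of-frame templates, with the next at 6.09%. Anti-PD-1 replicate 3, the largest library, had a mean CDR3 length of 13.88 residues, with the next at 13.80. ANT008 replicate 2 had 3.22 bases deleted from the V end on average, with the next at 3.10. Control replicate 3 had DW in 4.18% of Trbv19 templates, with the next at 38.3%, and anti-PD-1 replicate 1 in 6.38%, with the next at 24.5%. Each was flagged for standing apart from the other 3 mice of its group, and the cause of none was tested.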

How the results depend on the processing

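Of 485 alternative values of 31 results, 356 that leave out 1 mouse and 99 others kept the direction and the side of the threshold, and those that did not are given here. The template share with ANT008 turned to -0.10 on the log2 scale with library size as a covariate (added after seeing the data); TMM gave -0.014 for anti-PD-1 and -0.081 for the combination, and DESeq2 -0.057 for the combination. Leaving out 1 mouse moved the ANT008 value from -0.14 (without ANT008 replicate 3) to 0.73 (without control replicate 1). None of these passed the threshold. The leading clone share with anti-PD-1 reached the smallest exact p without single-template entries (-15.4 percentage points), and without 1 mouse it ranged from -17.6 to -8.75; with ANT008 it ranged from -10.6 to 3.52. Mean CDR3 length weighted by templates differed by 0.15 residues with ANT008 and 0.10 with anti-PD-1, and without single-template entries by -0.081 for the combination, which without 1 mouse ranged from 0.014 to 0.11 and, without control replicate 3, reached the smallest exact p (0.0286); insertions in the combination ranged from -0.089 to 0.056. The productive minus out-of-frame difference was 1.07 by templates (exact sign-flip adjusted p = 0.386) and 0.73 without single-template entries. Trbv19 minus other V genes in CDR3 length was -0.11 by templates and no longer passed the threshold. The J segments called numbered 1 by templates, 1 without single-template entries, and 4 to 7 without 1 mouse: 4 without each of ANT008 replicates 3 and 4, anti-PD-1 replicate 2 and combination replicate 2. Recurrent CDR3s numbered 168, 24 and 12 at 3, 6 and 8 mice, 18 as identical reads, 20 without single-template entries and 52 to 65 without 1 mouse. The cause of these shifts was not tested, apart from the counts, where fewer mice or entries qualify by construction. Replicate numbers did not pair the mice (r of -0.37 to 0.67 over 24 same-numbered pairs, 6 over 0.1); with the replicate number as a block the unique share with ANT008 was 0.32 (edgeR adjusted p = 0.1999), and the block changed no Trbv19 call. Libraries of 239 to 1010 Trbv19 entries and 4 mice per group limit what can be seen.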
